A study of Mus musculus with 8 samples.

Results

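Cholesterol synthesis genes were examined in RNA-seq data of whole mouse liver at 4 developmental stages. The set was chosen by gene symbol and holds 8 genes: Hmgcs1, Mvk, Idi1, Fdps, Fdft1, Sqle, Lss and Dhcr7. Hmgcs1 was not analysed here, since its symbol did not match a row in the gene tables used. The other 7 had a row in all 8 tables, out of 22059 genes, and all 7 remained among 17081 genes after the low-count filter of edgeR. The livers came from wild-type mice of the inbred FVB strain (FVB/NJ in the study's methods), without transgene or treatment, at embryonic day 18 (E18), postnatal day 14 (P14), P28 and adulthood (3 months). Each stage had 2 samples of poly(A)-selected RNA. The study's methods name male mice for adult liver, without tying this to the sequenced samples. Neither the sex at the other stages, nor the litter, nor whether an E18 sample pooled several embryos is given in the sources used here. The p-values therefore measure the spread between these samples. Gene counts added up to 68154675 to 106055723 reads a sample (median 85098383).

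Cholesterol is built from acetyl-CoA through the mevalonate pathway. Hmgcs1 makes HMG-CoA, which is reduced to mevalonate. Mvk (mevalonate kinase) phosphorylates mevalonate, Idi1 interconverts the isoprenoid units isopentenyl and dimethylallyl diphosphate, and Fdps joins them into farnesyl diphosphate. From there the pathway is committed to sterols: Fdft1 (squalene synthase) makes squalene, Sqle adds an epoxide to it, Lss closes the sterol rings into lanosterol, and Dhcr7 carries out a late reduction on the way to cholesterol. In liver these genes are known targets of SREBP-2, a membrane-bound transcription factor that is released when sterols in the endoplasmic reticulum are low and that acts together with the CCAAT-binding factor NF-Y and the GC-box factor Sp1. Suckling animals receive cholesterol in milk, and liver synthesis is a textbook example of a pathway shut down by dietary sterol. The part of diet in the changes reported here was not tested.

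In the mouse genome (build GRCm38, GENCODE M21 annotation) the protein-coding genes lie on separate chromosomes except for a pair on chromosome 13. Hmgcs1 is at chr13:119690379-119708260 and Idi1 at chr13:8885501-8892451, both on the plus strand. Mvk is at chr5:114444269-114460591, Sqle at chr15:59315077-59331192, Lss at chr10:76531588-76557138 and Dhcr7 at chr7:143823145-143848410, all on the plus strand. Fdps (chr3:89093588-89101959) and Fdft1 (chr14:63145150-63179578) are on the minus strand. The read counts themselves were made on build mm9 according to the submitters' processing notes, so these positions serve only to place the genes.

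Promoter sequence is shown because the known regulators of these genes bind short motifs close to the start site. RefSeq promoters of 300 bases (250 before to 50 after the start, GRCm38.p6) were at hand for Hmgcs1, Mvk, Idi1, Lss and Dhcr7. Fdps, Fdft1 and Sqle had no entry. Motifs of 3 kinds were searched on both strands: the CCAAT box (CCAAT, or ATTGG when read on the other strand), the GC box (GGGCGG) and a core of the sterol regulatory element (TCACNCCAC). Each window below is a run of 30 bases of the plus strand, with the match in capitals and its region after the name.
Mvk, chr5:114444083-114444112: atcgctgtttcctATTGGcctggggcactc
Mvk, chr5:114444136-114444165: gctcttgattcccATTGGattacttgtaga
Mvk, chr5:114444189-114444218: gcttgaagttcccATTGGttaatgtttgac
Mvk, chr5:114444242-114444271: ctccagctctctgATTGGcctcaggaagac
Dhcr7, chr7:143830116-143830145: ctcactgccttcaCCAATcacaggacgcag
Dhcr7, chr7:143830152-143830181: aaatccacttccgATTGGtcgtctgtgacc
Lss, chr10:76531530-76531559: tggtgatgctctgATTGGccgagctcgcat
Idi1, chr13:8885548-8885577: ttgcctccagctgATTGGcgagcccgggca
Idi1, chr13:8885579-8885608: ggtccaaggtgccATTGGctggcgaccgac
Hmgcs1, chr13:119690203-119690232: acgtcaccgtcTCACCCCACttcccaggtc

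The CCAAT box was present in all 5 genes that had a promoter entry, against 37.4% of 32851 promoters of the same length. Mvk had 5 matches, and its 4 matches in the reverse orientation began at -173, -120, -67 and -14 relative to the start, at equal steps. Hmgcs1 had 4 matches, Idi1 and Dhcr7 had 2 each, and Lss had 1. For Dhcr7 the matches lay in 1 of its 3 annotated promoters. GC boxes were found in all 5 as well (1 in Idi1, 2 each in Mvk and Lss, 3 in Hmgcs1 and 4 in Dhcr7), against 35.7% of all promoters. The sterol regulatory element core was matched only by Hmgcs1, against 1.24% of all promoters. A match is a description of these letters in this window and not a binding site, and the absence of these letters from the other 4 promoters says nothing about the factor.

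Expression levels are given as reads per 1000000 reads on genes (CPM), scaled between samples by TMM, which assumes that most genes do not change. The pattern was a trough at P14. Sqle had 122 and 118 CPM (E18), 6.77 and 7.59 (P14), 99.7 and 122 (P28) and 96.3 and 118 (adult). Its P14 samples stood far below all others, and those of E18, P28 and adult lay between 96.3 and 122 CPM. Lss, which uses the product of Sqle, had 116 and 112 CPM (E18), 20.5 and 17.4 (P14), 71.5 and 84.7 (P28) and 98.5 and 100 (adult). Here P28 lay between the trough and the other stages, without overlap. Dhcr7 had 102 and 114 CPM (E18), 38.9 and 41.3 (P14), 155 and 177 (P28) and 175 and 176 (adult). Its P14 samples were the lowest again, but P28 and adult were above E18.

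The enzymes of the earlier steps make isoprenoids. Idi1 had 3.76 and 3.51 CPM (E18), 0.524 and 0.583 (P14; 48 and 52 reads), 3.54 and 4.59 (P28) and 4.81 and 4.90 (adult). Fdps had 9.45 and 7.81 CPM (E18), 1.82 and 1.58 (P14; 167 and 141 reads), 13.3 and 17.3 (P28) and 17.6 and 14.4 (adult). Both genes had their P14 samples below all 6 others. Mvk had 23.1 and 29.4 CPM (E18), 14.6 and 15 (P14), 36.1 and 41.6 (P28) and 33.6 and 38.9 (adult). Its trough was present but shallower, and P28 and adult overlapped.

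Fdft1, at the first step committed to sterols, departed from the others. It had 25.8 and 30.6 CPM (E18), 24.4 and 26.6 (P14), 44.2 and 48.1 (P28) and 40.6 and 40.1 (adult). Its E18 and P14 samples overlapped, and P28 and adult both lay above them. Summed over the 7 genes, the level was 401 and 416 CPM (E18), 107 and 110 (P14), 424 and 495 (P28) and 467 and 493 (adult). In 6 of the 7, all but Fdft1, both P14 samples lay below all 6 other samples, which held for 9.37% of all genes tested. A test for a difference between any of the stages was passed by all 7 (edgeR, false discovery rate below 0.1), but also by 91.0% of all genes.

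**Figure D1:**
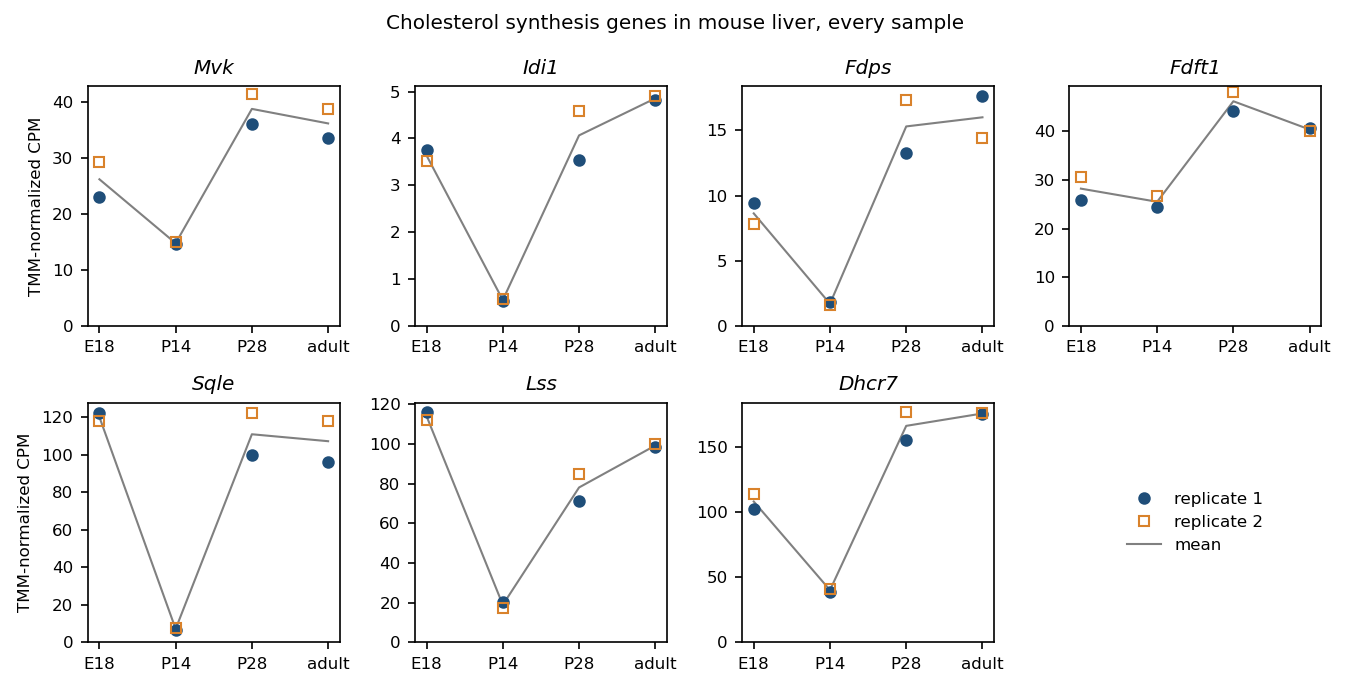
TMM-normalized CPM (vertical axis, linear from 0, with its own scale in each panel) of the 7 genes at the 4 stages (horizontal axis), with filled circles for replicate 1, open squares for replicate 2 and a grey line through the stage means. Sqle drops from 122 and 118 CPM at E18 to 6.77 and 7.59 at P14, whereas Fdft1 stays between 24.4 and 30.6 CPM over the same interval.

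From E18 to P14, 6 of the 7 genes fell and 0 rose (edgeR quasi-likelihood test, false discovery rate below 0.1). Among all genes tested, 39.3% fell and 38.2% rose by the same rule. The fall was over 3-fold in 4 genes (Idi1, Fdps, Sqle and Lss), against 15.4% of all genes, and none of the 7 rose over 3-fold, against 13.8%. The median log2 fold change of the 7 was -2.34, and that of all genes was -0.03. Sqle fell the most, with a log2 fold change of -4.06 (SE 0.15, edgeR adjusted p = 3.5e-08), a 16.7-fold decrease. Its P14 mean was 6.0% of the E18 mean. Idi1 followed with -2.71 (SE 0.19, edgeR adjusted p = 1.6e-06), and its P14 mean was 15.2% of that at E18. Lss changed by -2.59 (SE 0.12, edgeR adjusted p = 1.1e-07) and Fdps by -2.34 (SE 0.19, edgeR adjusted p = 4.1e-06). Dhcr7 and Mvk fell by less, to 37.1% and 56.4% of their E18 means, with log2 fold changes of -1.43 (SE 0.10) and -0.83 (SE 0.14). The squalene synthase Fdft1 did not pass the test, with a log2 fold change of -0.15 (SE 0.11, edgeR adjusted p = 0.24). Over the 17 alternative analyses its adjusted p ranged from 1.4e-05 to 0.94, and it was below 0.1 in 5 of them, one of which left out E18 replicate 1 (-0.26, edgeR adjusted p = 0.047).

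The comparison of P14 with E18 depends on how the samples are scaled. TMM gave the E18 samples factors of 1.598 and 1.539 and the postnatal samples factors of 0.847 to 0.888. When samples were scaled by library size alone, the median of all genes from E18 to P14 moved from -0.03 to -0.90. Of the 17081 genes, 11402 fell and 3177 rose by that scaling. All 7 genes then fell, with a median of -3.21, including Fdft1 at -1.01. That scaling lowers P14 relative to E18 for all genes alike, so it could not have removed a fall. The falls of the other 6 passed in each of the 17 alternatives.

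From P14 to P28, all 7 genes rose, against 25.2% of all genes, and 5 of them (Idi1, Fdps, Sqle, Lss and Dhcr7) rose over 3-fold, against 3.61% of all genes. None fell, against 28.6% of all genes at the same false discovery rate and 5.98% with the 3-fold threshold. This comparison shares the P14 samples with the one before, so the rises and the falls are not separate evidence of a trough. The median log2 fold change of the 7 was 2.05, and that of all genes was -0.05. Sqle rose by a log2 fold change of 3.95 (SE 0.15, edgeR adjusted p = 6.8e-07), Fdps by 3.17 (SE 0.19, edgeR adjusted p = 6.5e-06) and Idi1 by 2.87 (SE 0.19, edgeR adjusted p = 1.1e-05). Dhcr7 (2.05, SE 0.11) and Lss (2.04, SE 0.11) rose by nearly the same amount. Mvk (1.39, SE 0.14) and Fdft1 (0.86, SE 0.11, edgeR adjusted p = 2.9e-04) rose the least. All 7 passed the test in each of the 17 alternatives, and library size alone gave a median of 2.04.

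Between P28 and adult, 1 of the 7 genes rose (against 7.94% of all genes) and 0 fell (against 13.2%). None changed over 3-fold, against 0.767% of all genes that rose and 2.24% that fell. The riser was Lss, by 0.35 on the log2 scale (SE 0.11, edgeR adjusted p = 0.067). Over the alternatives its adjusted p ranged from 0.051 to 0.36. It was lost without P28 replicate 1 (0.23, edgeR adjusted p = 0.36), without adult replicate 1 (0.36, edgeR adjusted p = 0.19) and without adult replicate 2 (0.33, edgeR adjusted p = 0.24). The other 6 genes had log2 fold changes from -0.19 (Fdft1, SE 0.11) to 0.26 (Idi1), and their adjusted p-values were 0.27 to 0.85. The median of the 7 was 0.06, and that of all genes was 0.00.

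The adult level relative to E18 could not be settled for most of the genes. With TMM, 5 of the 7 were higher in adult (against 39.5% of all genes), 0 were lower (against 43.8%), and none differed over 3-fold (against 16.8% higher and 23.8% lower). Fdps had the largest difference, 0.89 (SE 0.17, edgeR adjusted p = 0.0011), which with library size alone was 0.03 (edgeR adjusted p = 0.86) and over the 17 alternatives ran from 0.01 to 1.03, with adjusted p-values from 1.0e-05 to 0.94. It was followed by Dhcr7 at 0.70 (SE 0.10), Fdft1 at 0.52 (SE 0.11), Mvk at 0.47 (SE 0.14) and Idi1 at 0.42 (SE 0.16). With library size alone, 0 were higher and 5 were lower, and the signs of Mvk (-0.38), Idi1 (-0.43), Fdft1 (-0.33) and Dhcr7 (-0.14) turned. The median of all genes moved from -0.11 to -0.95 under that scaling. Sqle (-0.16, SE 0.13, edgeR adjusted p = 0.27) and Lss (-0.20, SE 0.11, edgeR adjusted p = 0.12) did not pass the test with TMM. Without a correction for composition they were lower in adult, at -1.01 and -1.05.

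**Figure D2:**
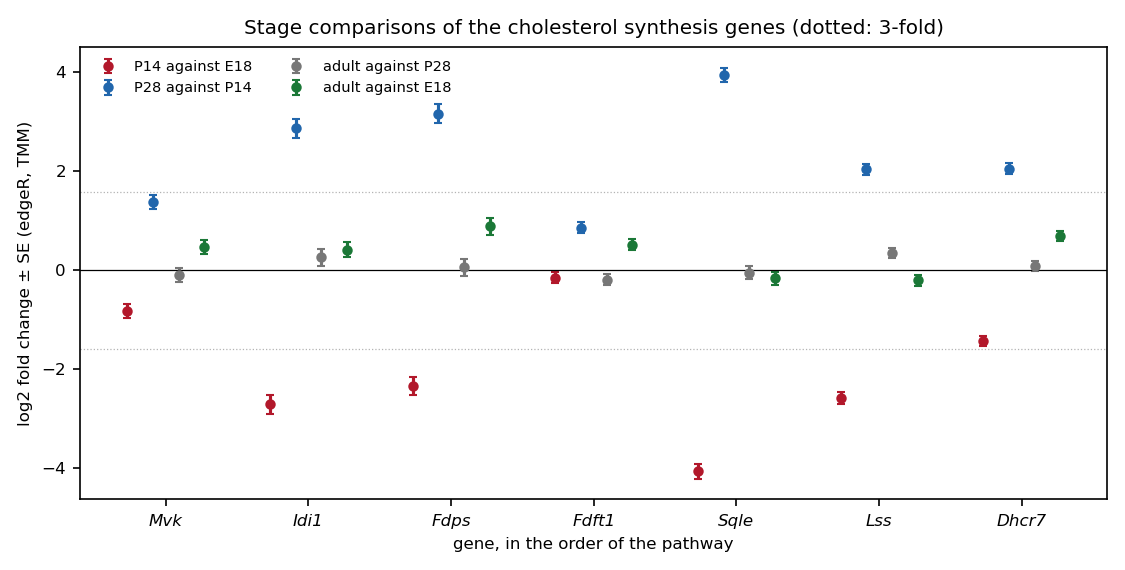
Log2 fold changes (vertical axis, edgeR after TMM) of the 7 genes in pathway order (horizontal axis) for the 4 stage comparisons, with bars of 1 standard error and dotted lines at 3-fold. The P14 against E18 points run from -4.06 (Sqle) to -0.15 (Fdft1), the P28 against P14 points from 0.86 (Fdft1) to 3.95 (Sqle), and the adult against P28 points from -0.19 to 0.35.

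Ratios between genes in the same sample do not depend on the scaling between samples. RPKM was used for these: the reads on a gene relative to its transcript length in kilobases and to 1000000 mapped reads. The ratio of Sqle to Fdft1 RPKM was 4.90 and 4.01 (E18), 0.289 and 0.298 (P14), 2.35 and 2.65 (P28) and 2.46 and 3.04 (adult). Sqle was thus above Fdft1 at every stage except P14, where it was below. The ratio of Sqle to Dhcr7 RPKM was 1.23 and 1.06 (E18), 0.179 and 0.188 (P14), 0.659 and 0.709 (P28) and 0.562 and 0.683 (adult). By contrast, the ratio of Idi1 to Fdps RPKM, at neighbouring steps, stayed between 0.136 and 0.229 in all 8 samples.

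The order of the genes by RPKM changed accordingly. At E18 Sqle led (65.7 and 62.1 RPKM), followed by Dhcr7 and Lss, whose samples overlapped, then Mvk, Fdft1, Fdps and Idi1 (1.95 and 1.77). At P14 Dhcr7 led (11.2 and 11.8 RPKM), followed by Mvk (7.18 and 7.26) and Fdft1 (6.93 and 7.46), which overlapped, then Lss, Sqle (2.00 and 2.22), Fdps and Idi1 (0.149 and 0.164). Sqle had moved from the top of the order to below Lss. At P28 Dhcr7 (43.1 and 50.1 RPKM) was again first and Sqle second (28.4 and 35.5), and Lss and Mvk overlapped behind them. In adult the order was Dhcr7 (49.1 and 50.8 RPKM), Sqle, Lss, Mvk, Fdft1, Fdps and Idi1, with no overlap between neighbours. The ratio of the highest to the lowest stage mean among the 7 was smallest at E18 (34.4) and largest at P14 (73.7), and came to 41.6 at P28 and 36.9 in adult.

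The 7 genes resembled each other in profile across the 8 samples, though to different degrees. As a description over samples that share stages, the 21 pairs had a median Pearson's r of 0.927 on log2 TMM CPM, from 0.520 (Fdft1 with Lss) to 0.990 (Fdps with Dhcr7). Dhcr7 was closest to the mean profile of the other 6 (r = 0.994, rank 1 of 10414 genes), followed by Fdps (0.987, rank 6) and Idi1 (0.979, rank 9). Mvk (0.966) ranked 27, Sqle (0.944) 53, Lss (0.881) 204 and Fdft1 (0.763) 558. These ranks were made with TMM only, and how they depend on the scaling was not tested. Within duplicates the genes also moved together at P28, where all 7 were higher in replicate 2, by 0.12 to 0.37 on the log2 scale with a median of 0.24. Among all genes 45.6% were higher in that sample, with a median difference of -0.02 and an SD of 0.22. At the other stages 3 (E18), 5 (P14) and 5 (adult) of the 7 were higher in replicate 2.

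Of 10413 other genes with a mean of at least 5 CPM, the 10 with the profile most like the mean of the 7 were Tifa (r = 0.992), Nsdhl (0.992), Mvd (0.990), Tbcel (0.990), Cyp51 (0.988), Zcchc6 (0.987), Tlcd1 (0.984), Prpf19 (0.981), Acot11 (0.979) and Gsk3b (0.978). Nsdhl, Mvd and Cyp51 are themselves enzymes of cholesterol synthesis, and Sc4mol, a C4-methylsterol oxidase now called Msmo1, ranked 23 (r = 0.970). Acot11, an acyl-CoA thioesterase, had 18.2 and 20.7 CPM (E18), 3.26 and 4.15 (P14), 25.8 and 36.5 (P28) and 46.6 and 54.4 (adult). Tifa, a signalling adaptor, had 17.2 and 21.9 CPM (E18), 7.30 and 7.75 (P14), 28.7 and 28.1 (P28) and 25.9 and 28.1 (adult). The list depended on the scaling, and 1 of the 10 (Tifa) was again among the first 10 with library size alone.

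The rest of the pathway was taken from a list of 13 other synthesis enzymes. From E18 to P14, 6 fell and 4 rose with TMM, and 10 fell and 2 rose with library size alone. Among all genes, 39.3% fell and 38.2% rose with TMM, and 11402 of 17081 fell and 3177 rose with library size alone. From P14 to P28, 12 rose and 1 (Lbr) fell, and the same counts were obtained with library size alone. Of all genes, 25.2% rose and 28.6% fell with TMM. Median log2 fold changes of the 13 were -0.22 from E18 to P14 and 1.30 from P14 to P28, beside -2.34 and 2.05 for the 7 genes above. From P28 to adult 3 were higher and 2 lower, against 7.94% and 13.2% of all genes. In adult against E18, 11 were higher and 2 lower with TMM, and 8 were higher and 3 lower with library size alone. Of all genes, 39.5% were higher and 43.8% lower with TMM, and 3770 of 17081 were higher and 11086 lower with library size alone. These shares of all genes also apply to the counts of the lists below.

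Enzymes with the same trough stood on both sides of lanosterol. Mvd, which makes isopentenyl diphosphate just before Idi1, had 24.7 and 26.5 CPM (E18), 7.25 and 5.14 (P14), 44.9 and 58.7 (P28) and 48.9 and 53.6 (adult). The lanosterol demethylase Cyp51 had 118 and 132 CPM (E18), 35.3 and 37.0 (P14), 229 and 265 (P28) and 268 and 295 (adult). Both had P14 samples below all others. Nsdhl, of the C4-demethylation complex, had 54.3 and 56.2 CPM (E18), 10.4 and 12 (P14), 98.3 and 111 (P28) and 130 and 128 (adult). Its partner Sc4mol had 105 and 117 CPM (E18), 34.6 and 37.3 (P14), 222 and 304 (P28) and 311 and 341 (adult). From P14 to P28 the log2 fold changes were 3.23 (SE 0.11) for Nsdhl, 3.06 (SE 0.19) for Mvd, 2.87 (SE 0.16) for Sc4mol and 2.77 (SE 0.12) for Cyp51, each within the range of the 7 genes.

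Other enzymes of the late steps did not have a trough at P14. Sc5d, the sterol desaturase that acts just before Dhcr7, had 40.4 and 40.1 CPM (E18), 170 and 175 (P14), 498 and 460 (P28) and 359 and 412 (adult). It rose from E18 to P14 by 2.10 on the log2 scale (SE 0.11, edgeR adjusted p = 2.2e-07). Lbr, the lamin B receptor, which is also a sterol C14-reductase, had 208 and 274 CPM (E18), 29.8 and 29.8 (P14), 16.8 and 15.1 (P28) and 14.2 and 15.4 (adult). It fell by 3.02 on the log2 scale (SE 0.14, edgeR adjusted p = 1.3e-07) from E18 to P14 and fell again by P28.

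**Figure D3:**
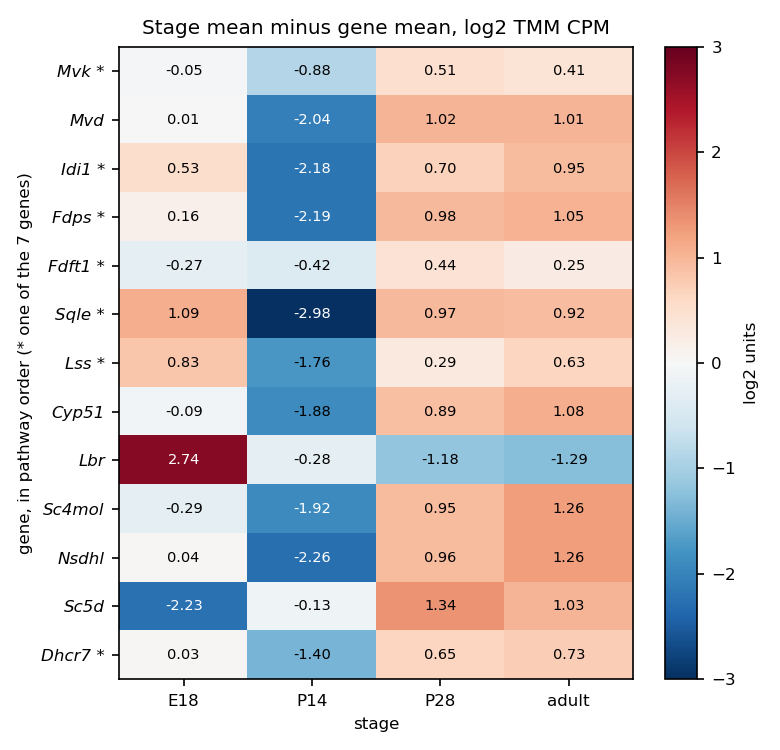
Heat map of stage means of log2 TMM CPM minus the gene's mean over the 4 stages (colour and printed number, log2 units), for the 7 genes (asterisk) and the 6 other synthesis enzymes with the largest changes, in approximate pathway order. The P14 column is the lowest of its row in every gene except Lbr and Sc5d, and runs down to -2.98 in Sqle.

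Enzymes that use mevalonate-pathway products for other purposes (prenylation, dolichol, ubiquinone) formed a list of 12. From E18 to P14, 5 rose and 2 fell with TMM, against 38.2% and 39.3% of all genes. With library size alone 1 rose and 10 fell, against 3177 and 11402 of 17081 genes. Over the next interval, P14 to P28, 3 rose and 2 fell, and the median was 0.07, beside 2.05 for the 7 genes. From P28 to adult 1 rose and 1 fell. In adult against E18, 7 were higher and 3 lower with TMM, against 0 and 8 with library size alone. One gene passed 3-fold in any comparison, the farnesyltransferase subunit Fntb, with 27.2 and 30.6 CPM at E18 and between 8.30 and 10.9 CPM in all later samples.

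Enzymes of ketone body metabolism share intermediates with the first steps of the pathway. Acat1, a mitochondrial acetoacetyl-CoA thiolase, had 231 and 251 CPM (E18), 1657 and 1676 (P14), 735 and 807 (P28) and 573 and 557 (adult). It rose from E18 to P14 by 2.79 on the log2 scale (SE 0.11, edgeR adjusted p = 6.0e-08) and was thus highest where the synthesis genes were lowest. Aacs, which returns the ketone body acetoacetate to lipid synthesis in the cytosol, had 22.8 and 27.6 CPM (E18), 10.1 and 7.98 (P14), 156 and 66.1 (P28) and 233 and 419 (adult). It had the trough at P14, and its duplicates were far apart at P28 and in adult. Its rise from P14 to P28 was 3.62 on the log2 scale (SE 0.42, edgeR adjusted p = 2.0e-04).

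The SREBP machinery senses sterols: Scap carries SREBP to the Golgi when sterols are low, and the Insig proteins hold it back in the endoplasmic reticulum. Of 13 genes on this list, 7 rose and 4 fell from E18 to P14 with TMM, against 38.2% and 39.3% of all genes. With library size alone 2 rose and 9 fell, against 3177 and 11402 of 17081 genes. Between P14 and P28, 8 rose and 2 fell. From P28 to adult 0 rose and 2 fell, and in adult against E18 9 were higher and 2 lower (7 and 6 with library size alone). Insig1, itself a known SREBP target, had 17.8 and 15.7 CPM (E18), 8.31 and 8.92 (P14), 122 and 148 (P28) and 139 and 132 (adult). It rose from P14 to P28 by 3.97 on the log2 scale (SE 0.13, edgeR adjusted p = 2.8e-07), beside 3.95 for Sqle. Insig2 had 12.9 and 14.4 CPM (E18), 342 and 305 (P14), 477 and 442 (P28) and 260 and 377 (adult). It was already high at P14, where Insig1 was at its lowest, and its rise from E18 was 4.57 on the log2 scale (SE 0.19, edgeR adjusted p = 7.3e-08).

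The SREBP genes themselves went in opposite directions between E18 and P14. Srebf1, which encodes the SREBP-1 forms that drive fatty acid synthesis, had 110 and 124 CPM (E18), 618 and 709 (P14), 527 and 547 (P28) and 523 and 474 (adult). It rose by 2.50 on the log2 scale (SE 0.12, edgeR adjusted p = 1.8e-07), and by 1.63 with library size alone. Srebf2, which encodes SREBP-2 and was singled out after its values were seen, had 110 and 105 CPM (E18), 57.8 and 64.7 (P14), 90.7 and 90.4 (P28) and 65.2 and 79.6 (adult). Its log2 fold changes were -0.81 (SE 0.11, edgeR adjusted p = 1.5e-04) from E18 to P14 and 0.56 (SE 0.11, edgeR adjusted p = 0.0032) from P14 to P28, beside medians of -2.34 and 2.05 for the 7 synthesis genes. The ubiquitin ligase gene Rnf145 was lower (-1.87, SE 0.19) and Ubxn4 higher (1.65, SE 0.15) in adult than at E18.

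Genes of sterol uptake and trafficking formed a list of 15. From E18 to P14, 8 rose and 5 fell with TMM, against 38.2% and 39.3% of all genes. With library size alone 4 rose and 10 fell, against 3177 and 11402 of 17081 genes. Between P14 and P28 7 rose and 3 fell, from P28 to adult 2 rose and 3 fell, and in adult against E18 9 were higher and 5 lower (6 and 6 with library size alone). Soat1, which esterifies cholesterol for storage, had 42.9 and 39.8 CPM (E18), 8.99 and 9.48 (P14), 6.89 and 5.72 (P28) and 4.09 and 4.31 (adult). Npc1, which exports cholesterol from lysosomes, had 33.6 and 32.6 CPM (E18), 127 and 134 (P14), 190 and 248 (P28) and 299 and 230 (adult). The lipoprotein remnant receptor Lrp1 had 137 and 125 CPM at E18 and between 705 and 1114 CPM in all later samples. None of these 3 had its lowest level at P14. Mylip, a ubiquitin ligase for lipoprotein receptors, was lower in adult than at E18 (-2.18, SE 0.17), as was the sterol transporter Npc1l1 (-2.01, SE 0.46), which stayed under 1 CPM in every sample.

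Genes of sterol efflux and of the sterol-sensing LXR receptors formed a list of 7. Between E18 and P14, 6 rose and 0 fell with TMM, against 38.2% and 39.3% of all genes. With library size alone 4 rose and 2 fell, against 3177 and 11402 of 17081 genes. The median log2 fold change with TMM was 2.74, beside 2.24 for the 11 hepatocyte markers, so such a rise was not particular to this list. Abcg5 and Abcg8, which form the transporter that secretes cholesterol into bile, are known LXR targets. Abcg5 had 0.447 and 0.376 CPM (E18), 374 and 363 (P14), 115 and 116 (P28) and 128 and 116 (adult). Its peak was thus at the stage where Sqle had its trough. Abcg8 had 1.02 and 0.964 CPM (E18), 177 and 209 (P14), 100 and 104 (P28) and 140 and 138 (adult). The log2 fold changes from E18 to P14 were 9.80 (SE 0.15, edgeR adjusted p = 2.7e-09) for Abcg5 and 7.60 (SE 0.14, edgeR adjusted p = 3.0e-09) for Abcg8. From P14 to P28, 2 of the list rose and 3 fell, among them Abcg5 (-1.67, SE 0.10) and Abcg8 (-0.91, SE 0.10). From P28 to adult 1 rose and 2 fell, and in adult against E18 6 were higher and 1 lower (4 and 2 with library size alone). Nr1h3, which encodes LXR-alpha, and Lcat, which esterifies cholesterol in plasma lipoproteins, rose from E18 to P14 by 2.74 (SE 0.13) and 3.0 (SE 0.10). Both stayed high later: Nr1h3 had 133 and 125 CPM at P14 and 169 and 168 at P28. Lcat had 569 and 602 CPM at P14 and 559 and 566 at P28.

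Cell type markers moved with the same stages. The 11 hepatocyte markers all rose from E18 to P14 (median 2.24), and their sum was 68810 and 63525 CPM (E18), 332697 and 335230 (P14), 229182 and 212063 (P28) and 144398 and 122071 (adult). This sum was highest at P14 and was mostly that of Alb, Trf and Ahsg, abundant plasma proteins. Singly, 5 of the 11 had their highest mean at P14, 1 at P28 and 5 in adult, among them the hepatocyte transcription factor Hnf4a, with 677 and 578 CPM at P14 and 1000 and 991 CPM in adult. All 9 erythroid markers that were tested fell from E18 to P14, with sums of 6804 and 8699 CPM at E18 and between 46.9 and 67.1 in all later samples. The 7 neutrophil and myeloid progenitor markers fell too, with sums of 671 and 733 CPM at E18, 89.9 and 94.3 at P14, and at most 2.54 later. Library size alone gave the same counts for these 3 lists. Between P14 and P28, over which all 7 synthesis genes rose, 3 hepatocyte markers rose and 5 fell, 1 erythroid marker (Alas2, of haem synthesis, the largest part of the sum after E18) rose and 7 fell, and all 7 neutrophil and myeloid markers fell.

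Among other liver cells, macrophage markers (2 rose and 2 fell of 7), endothelial markers (6 rose and 1 fell of 7), stellate and mesenchymal markers (5 rose and 0 fell of 7) and cholangiocyte markers (1 rose and 2 fell of 5) changed in part between E18 and P14. With library size alone these counts were 2 and 5, 3 and 2, 3 and 2, and 1 and 3. Over the P14 to P28 rise of the synthesis genes, all 7 endothelial markers, 5 stellate and mesenchymal, 4 cholangiocyte and 2 macrophage markers fell, and 1 macrophage marker rose. Of 9 pancreatic acinar markers 7 fell and 1 rose from E18 to P14 (7 and 0 with library size alone), with sums of 242 and 520 CPM at E18, and Ctrb1 had 71.0 and 198 CPM there. E18 replicate 2 thus held more acinar transcripts than replicate 1, and both held more than the P14 samples (32.8 and 32.6 CPM). Between P14 and P28, 1 acinar marker rose (Cela1, to 115 and 118 CPM) and 1 fell (Pnliprp1). The part of cell composition in the synthesis genes' changes was not tested. In such bulk samples, fewer cells of a type and less RNA per cell cannot be told apart.

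**Figure D4:**
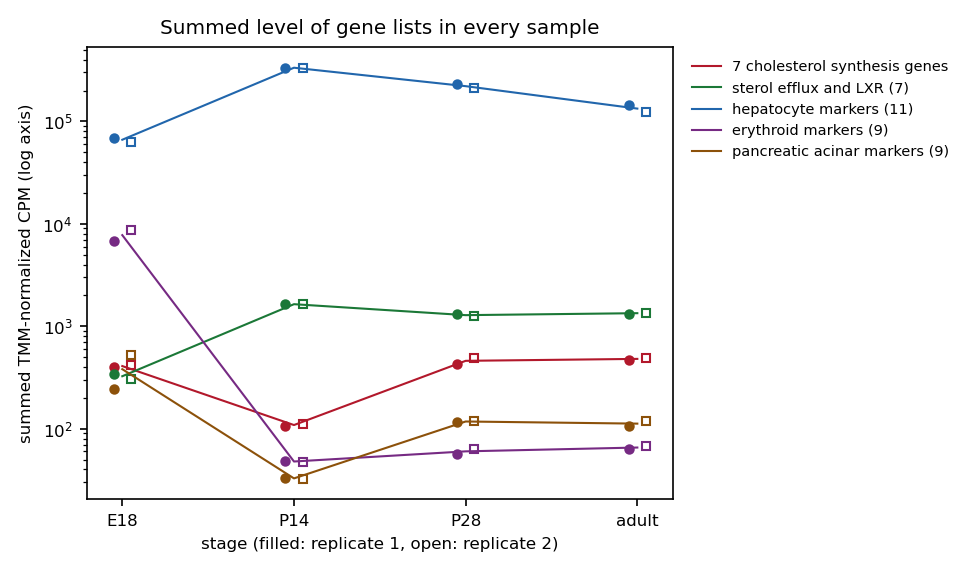
Summed TMM-normalized CPM (vertical axis, log scale) of the 7 synthesis genes, the 7 efflux and LXR genes and 3 marker lists at the 4 stages, with filled circles for replicate 1, open squares for replicate 2 and lines through the means. The synthesis genes dip to 107 and 110 CPM at P14. The hepatocyte sum there, mostly Alb, Trf and Ahsg, is 332697 and 335230 CPM. The erythroid markers stay low from P14 on. The pancreatic acinar sum is also lowest at P14 (32.8 and 32.6 CPM). Its return at P28 (116 and 119) is that of Cela1 alone (115 and 118 CPM).

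Some counts may include reads of other genes, or may lack reads shared with near-identical copies. The strand and the treatment of shared reads in the counts are not given in the sources used here. The study lists uniquely mapped reads per sample, without saying whether the gene counts used only these. Fdps has 5 processed pseudogenes at 91.1 to 98.9% identity over 74.3 to 76.8% of its transcript, and it overlaps another annotated gene on the same strand, Gm43738, which has the same sequence over 81.6% of it. None of these had a row, so the Fdps count may be too high or too low. Its place in the order by RPKM and the ratio of Idi1 to Fdps are uncertain for the same reason. Fdft1 has 1 such pseudogene (97.4% identity over 33.7% of the transcript) and overlaps Ctsb on the opposite strand by 774 bases. Ctsb, a lysosomal protease gene, was far more abundant, with 703 and 970 CPM at E18 and 844 and 895 at P14. Lss overlaps the antisense transcript 4930483K19Rik by 11268 bases, which had 14.5 and 13.5 CPM (E18), 2.48 and 1.92 (P14), 9.38 and 10.6 (P28) and 11.7 and 12.2 (adult). That profile has its lowest level at P14 as Lss does, and without strand the reads of the pair cannot be told apart.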

How the data were processed

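Poly(A) RNA-seq of 8 samples of mouse liver was used, 2 at each of E18, P14, P28 and adult, grouped by the sample labels. RNA was isolated with Trizol per the labels and with an RNeasy kit per the study's methods. The authors sequenced read pairs of 100 bp, mapped them (build mm9 in the submitters' processing notes) and deposited, per gene and sample, the raw read count and the RPKM. The aligner and counter are not given in the sources used here.

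The 8 symbols and the gene lists were chosen with earlier results of these data known, and so were the promoter motifs. Counts were filtered with filterByExpr, scaled by TMM and fitted with edgeR (version 4.0.16, glmQLFit and glmQLFTest) with 1 coefficient per stage over all 8 samples. A gene passed when its p-value, adjusted by Benjamini-Hochberg, gave a false discovery rate below 0.1, the threshold of the study, and changes over 3-fold were counted beside it. The study used DESeq. With 2 samples a stage, exact permutation could reach no p under 0.33. At 68154675 to 106055723 reads per sample, Idi1 at P14 rested on 48 and 52 reads. The SE is that of the log2 fold change.

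Named were the 8 genes, at most 6 genes a list that passed both thresholds in any comparison, by size, and the 10 genes closest in profile (Pearson's r on log2 TMM CPM with a prior of 0.5). Some genes that this rule gives are not reported here. Alternatives were DESeq2 (version 1.42.0), median-ratio scaling, scaling to library size only, log2(RPKM + 1) and log2(RPKM + 0.1) tested with limma (version 3.58.1), other filters, a false discovery rate of 0.05, the replicate block and each sample left out. Near-identical copies were found with blast (version 2.17.0) at 90% identity over 30% of the transcript. R (version 4.3.3) and Python (version 3.11.15) were used. Splicing was not analysed here.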

Additional observations from a re-analysis of the deposited data

How the results depend on the processing

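The falls from E18 to P14 (6 genes) and the rises from P14 to P28 (7 genes) were obtained in number under every alternative, within 1.5 times. The single rise from P28 to adult (Lss) gave 0 genes at a false discovery rate of 0.05 and 0 to 1 genes with each sample left out, and the median of the 7, 0.06, ranged from -0.11 (without P28 replicate 1) to 0.18 (without P28 replicate 2). In adult against E18 the median turned from 0.47 to -0.38 (library size alone), -0.33 (log2(RPKM + 1) in limma) and -0.40 (log2(RPKM + 0.1) in limma). In the same order Mvk gave -0.38, -0.38 and -0.40, Idi1 -0.43, -0.28 and -0.43, Fdft1 -0.33, -0.33 and -0.35, and Dhcr7 -0.14, -0.16 and -0.17. None of these 3 settings corrects for composition between samples. There were 476 values (7 genes, 4 comparisons, 17 alternatives). Of these, 440 stayed on the same side of the threshold, 15 passed it newly and 9 no longer passed. The other 12 were changes that passed with TMM and turned direction. Within the 440, changes that did not pass could still change sign. From P28 to adult, Fdps ran from -0.11 to 0.26, Sqle from -0.21 to 0.10 and Dhcr7 from -0.01 to 0.18. Idi1 in adult against E18 no longer passed with at least 10 counts in every sample, without E18 replicate 2 or without adult replicate 2, and its adjusted p (edgeR, DESeq2 or limma) ranged from 0.014 to 0.14.

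The labels number the samples 1 and 2 at each stage. Deviations of same-numbered samples correlated at -0.339 to 0.138 over the 6 pairs of stages. This cannot decide whether samples of different stages were prepared together, since the numbering within a stage may be arbitrary. With the replicate block the counts of genes passing were 6, 7, 1 and 5 in the 4 comparisons, as without it. With 2 samples per stage, differences of the size seen between P28 and adult lie near the limit of the test, and counting limits Idi1 and Fdps at P14.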
